A study of Capra hircus with 8 samples.

Results

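The immediate early response genes FOS, FOSB, JUN, JUNB, EGR1, EGR2, EGR3, DUSP1, ZFP36 and CTGF were followed in skin of 2 goat breeds at 4 months. They were taken by symbol from the count table, in which all 10 listed symbols were found, each in 1 row, among 18815 genes. All 10 also passed the filter on low counts, which left 14085 genes for testing. Cashmere goats, a breed kept for its fine winter undercoat, and milk goats (both Capra hircus) were each represented by 1 RNA-seq library of polyadenylated skin RNA at months 3, 6, 9 and 12, 8 libraries in all. The labels record the month as an age and the stated design speaks of months, so months of the year and months of life cannot be told apart. The labels give no treatment or allele, and the sources used here do not give the number of animals behind a library, their sex, or the handling between sampling and RNA extraction. The extraction protocol speaks of embryos, although every sample is labelled as skin. The study title concerns the seasonal cycling of the hair follicle.

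Immediate early genes are transcribed within minutes of a stimulus, without new protein synthesis. Growth factors, wounding, stretch and stress reach them through MAP kinase cascades that act on ELK factors and on serum response factor at their promoters, and through CREB. Most of their mRNAs are short-lived, so their level in a tissue reflects the recent past, including what happened to the tissue around sampling. FOS and FOSB pair with JUN and JUNB to form the transcription factor AP-1, EGR1, EGR2 and EGR3 are zinc finger transcription factors, DUSP1 and ZFP36 dampen the response, and CTGF is a secreted matricellular protein. In skin these genes are known from wound edges, from keratinocyte differentiation and from growing hair follicles.

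Library totals ran from 7480053 to 8718429 reads in cashmere goats and from 11333734 to 13899750 in milk goats, so depth and breed cannot be told apart. The skin was checked by the epidermal keratins KRT5, KRT14, KRT1 and KRT10 and the dermal genes COL1A1, COL1A2, DCN and LUM, all present in every library with a summed level of 29915 to 57361 counts per 1000000 reads (CPM, scaled by TMM factors). The libraries of month 12 stood apart in collagen: COL1A1 was at 735 CPM in cashmere goats and 539 CPM in milk goats there, against 1994 to 17749 CPM in the other 6 libraries, and COL1A2 at 363 and 263 CPM against 1072 to 7796 CPM. The other dermal genes were not alike in these libraries. At month 12 DCN was at 466 CPM in cashmere goats and 1047 CPM in milk goats, and LUM at 228 and 106 CPM. In these bulk samples, fewer cells of a type and less RNA per cell cannot be told apart. With 1 library for each breed and month, the mean and SD of a breed are over 4 months. The p-values and SE of the breed effect rest on the spread left after breed and month. The test draws each gene's spread toward that of all genes (empirical Bayes), so these errors are not a gene's own spread alone. The spread left after breed and month is how the breed difference varies between months. In it season or age, animals and technical error cannot be told apart.

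Between the breeds, 3 of the 10 genes were higher in cashmere goats at an adjusted p under 0.05 (DUSP1, ZFP36 and CTGF), against 1.47% of all genes tested, and 0 were lower, against 3.32% (edgeR quasi-likelihood test with Benjamini-Hochberg adjustment). At an unadjusted p under 0.05, 6 of the 10 were higher, against 12.9% of all genes. The log2 fold change was above 0 for 9 of the 10, JUN being the exception, against 52.8% of all genes, and its median was 0.71 over the 10 and 0.03 over all genes. Without the cashmere library of month 12 the median of the 10 was 0.47, without the milk library of that month 0.45, and with months 6 and 9 alone 0.44. Higher in cashmere goats in all 4 months were 5 of the 10, against 19.6% of all genes. Every cashmere library stood above every milk library for DUSP1 and CTGF, 2 of the 10, against 6.46% of all genes. Scaling by library totals or by FPKM (reads per kilobase and per 1000000 mapped reads) moved the median of all genes to 0.14 and to 0.16 or 0.23 (with 1 or 0.1 added to FPKM), and the folds below are read against such shifts.

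**Figure D1:**
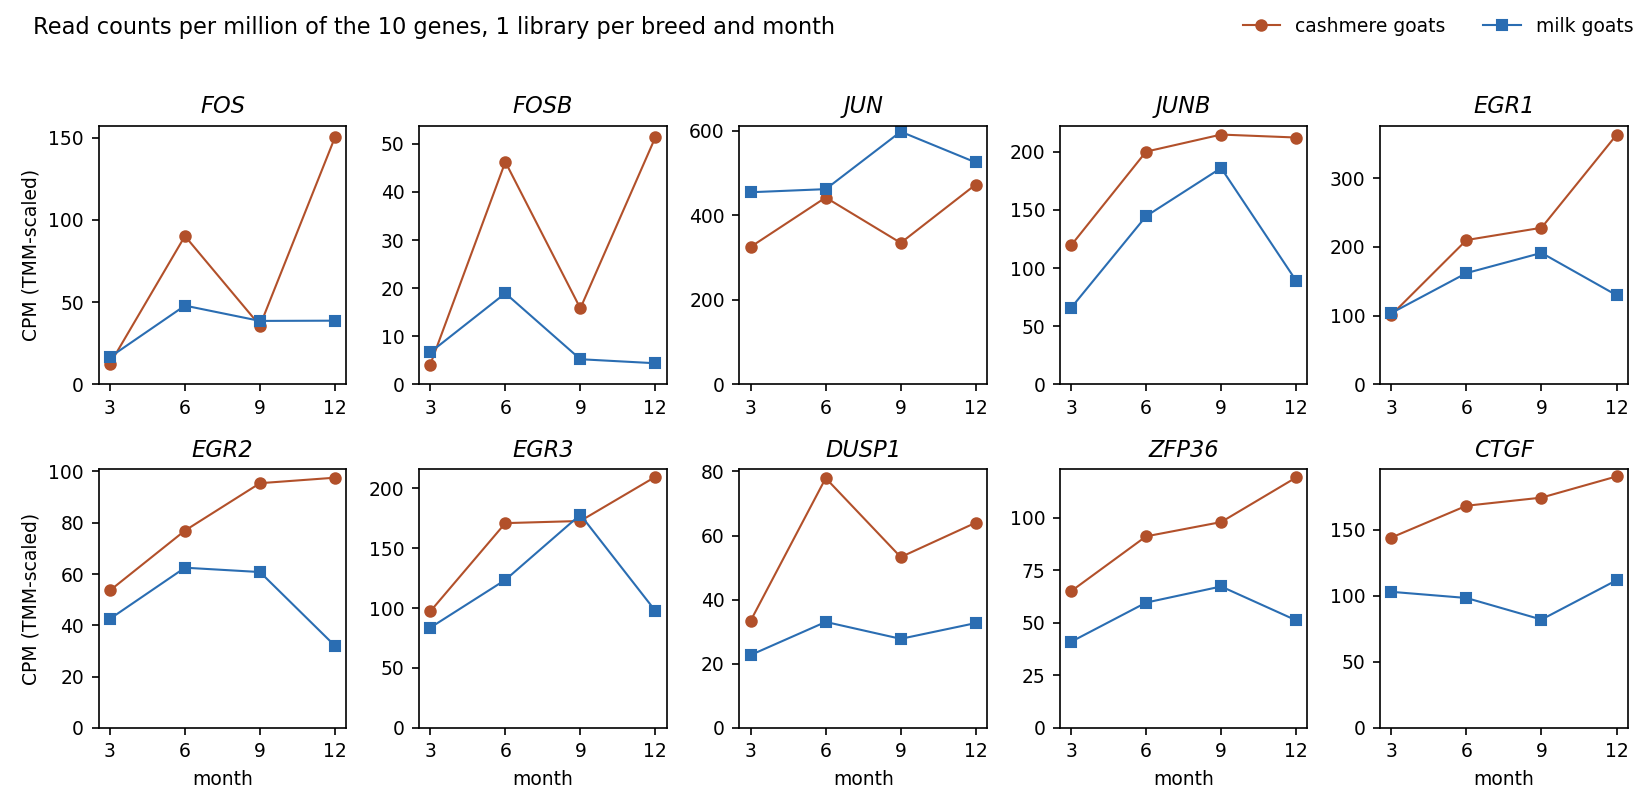
Read level of each gene in each library, in CPM on a linear axis from 0, against month; circles are cashmere goats, squares milk goats, and each point is 1 library. The cashmere line lies above the milk line at every month for DUSP1, ZFP36, CTGF, JUNB and EGR2, below it at every month for JUN, and crosses it for FOS, FOSB, EGR1 and EGR3.

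Of the genes that dampen the response, DUSP1 (gene20167) encodes a phosphatase that inactivates MAP kinases and is itself induced by them. It stood at 33.4, 77.9, 53.3 and 64.0 CPM in cashmere goats at months 3, 6, 9 and 12, and at 22.7, 33.0, 27.8 and 32.7 CPM in milk goats. The lowest cashmere library, that of month 3, lay just above the highest milk library, that of month 6, so the breeds did not overlap. DUSP1 was 1.90-fold higher in cashmere goats, at 57.1 ± 18.8 against 29.1 ± 4.86 CPM (SD, n = 4 months; log2 fold change 0.93 ± 0.14 SE, adjusted p = 0.0276, higher in 4 of 4 months). ZFP36 (gene17874) encodes tristetraprolin, a protein that binds AU-rich elements in mRNAs and speeds their decay. Its level was 65.0, 91.1, 97.9 and 119 CPM in cashmere goats at months 3, 6, 9 and 12 and 40.96, 59.6, 67.3 and 51.2 CPM in milk goats. Within each month the cashmere library was higher, while the cashmere library of month 3 fell just under the milk library of month 9. ZFP36 was 1.69-fold higher in cashmere goats (93.3 ± 22.3 against 54.8 ± 11.3 CPM, log2 fold change 0.76 ± 0.15 SE, adjusted p = 0.0406).

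CTGF (gene9868), also called CCN2, is a secreted matrix-associated protein and a classical target of YAP and TEAD and of TGF-beta. It was measured at 144, 168, 174 and 190.4 CPM in cashmere goats at months 3, 6, 9 and 12, and at 103, 98.4, 82.0 and 112 CPM in milk goats. All cashmere libraries lay above all milk libraries. CTGF was 1.72-fold higher in cashmere goats, at 169 ± 19.2 against 98.8 ± 12.5 CPM (log2 fold change 0.78 ± 0.14 SE, adjusted p = 0.0371). Of the 10 genes it varied least between months in cashmere goats, with a highest to lowest ratio of 1.32.

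The calls of DUSP1, ZFP36 and CTGF held without either library of month 12, with adjusted p of 0.0290 to 0.0370 over the 3 genes without the cashmere library. Without any 1 library of months 3, 6 or 9 of either breed none of the 3 was called, at adjusted p up to 0.118 for DUSP1, 0.150 for ZFP36 and 0.154 for CTGF, and in each of those 6 runs no more than 4 of all genes were called. The log2 fold changes in those runs were 0.79 to 1.05 for DUSP1, 0.77 to 0.85 for ZFP36 and 0.68 to 0.87 for CTGF, close to those over all libraries. As month is in the model, leaving out either library of a month is nearly the same check of the breed effect. The 6 runs are thus not all separate, nor are those of month 12.

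FOS and FOSB, the partners in AP-1 that cannot pair with themselves, varied most. FOS (gene10262) stood at 12.5, 90.2, 35.7 and 150.2 CPM in cashmere goats at months 3, 6, 9 and 12, and at 16.6, 47.9, 38.6 and 38.8 CPM in milk goats. The cashmere library was the higher of the pair at months 6 and 12 and the lower at months 3 and 9. At month 12 the ratio of cashmere to milk was 3.88 (exact 95% binomial interval 3.47 to 4.34, counting error only), and at month 3 it was 0.751 (0.590 to 0.953). Over the months FOS did not pass between breeds (log2 fold change 0.61, 95% interval -0.26 to 1.48, adjusted p = 0.325). FOSB (gene18076) stood at 4.12, 46.2, 15.8 and 51.4 CPM in cashmere goats and at 6.68, 18.9, 5.24 and 4.40 CPM in milk goats, in the same order of months. Cashmere goats were thus lower at month 3 and higher at the other months. With 390 reads against 50, the ratio of month 12 was 11.7 (8.67 to 15.98), which was the highest ratio of any of the 10 genes in any month. Its log2 fold change over the months was the largest of the 10 and the least precise, at 1.48 ± 0.58 SE (adjusted p = 0.159).

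Within cashmere goats, FOS at month 12 was 12.0 times its level at month 3 (exact 95% interval 9.88 to 14.8) and FOSB 12.5 times (8.84 to 18.1). Milk goats had a smaller range: FOS was 2.88 times higher at month 6 than at month 3, and FOSB 4.30 times higher at month 6 than at month 12. A highest to lowest library ratio of at least 5 was found for these 2 of the 10 genes, against 9.66% of all genes.

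JUN and JUNB, which supply the other side of AP-1, behaved differently from each other. JUN (gene2670), the founding member, was the only gene of the 10 lower in cashmere goats in all 4 months. Its level was 326, 442, 335 and 473 CPM in cashmere goats at months 3, 6, 9 and 12, and 455, 462, 598 and 525 CPM in milk goats. The cashmere libraries of months 3, 6 and 9 were below all milk libraries. The breeds overlapped because the cashmere library of month 12 lay above the milk libraries of months 3 and 6. The difference did not pass (log2 fold change -0.38, 95% interval -0.82 to 0.05, adjusted p = 0.234). In FPKM the 4 milk libraries lay between 99.47 and 101.17, while the cashmere libraries lay at 79.37, 100.27, 76.3 and 104.58, so that on this scale month 12 was higher in cashmere goats. JUNB (gene8268), a weaker activator that can oppose JUN, went the other way. It stood at 119.5, 200.1, 215 and 212 CPM in cashmere goats and at 65.8, 145, 186 and 89.2 CPM in milk goats. Cashmere goats were higher in each month, by between 1.15 times at month 9 and 2.38 times at month 12, and the breeds overlapped because the cashmere library of month 3 was low. JUNB missed the threshold (log2 fold change 0.70 ± 0.19 SE, adjusted p = 0.0812), which it passed with library totals (0.81, adjusted p = 0.0453), with DESeq2 (0.68, adjusted p = 0.0189), with limma on log2(FPKM + 1) (0.89, adjusted p = 0.0274) and in the second count table described further on. Its adjusted p over all alternatives ran from 0.0189 to 0.414.

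The ratio of JUNB to JUN, both per length in FPKM, was 0.536, 0.661, 0.937 and 0.656 in cashmere goats at months 3, 6, 9 and 12 and 0.211, 0.457, 0.455 and 0.248 in milk goats. Every cashmere library had more JUNB for its JUN than every milk library. How often other pairs of genes do so was not counted. Of single genes in FPKM, 17.1% had all cashmere libraries above all milk libraries. FOS to JUN ranged from 0.0479 at month 3 to 0.397 at month 12 in cashmere goats and from 0.0457 at month 3 to 0.130 at month 6 in milk goats.

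EGR1, EGR2 and EGR3 bind the same GC-rich sites through 3 zinc fingers. EGR1 (gene7494), the most abundant of them, stood at 101, 210.0, 228 and 363 CPM in cashmere goats at months 3, 6, 9 and 12, and at 104, 162, 191 and 129.9 CPM in milk goats. The breeds were level at month 3 and furthest apart at month 12, where the ratio was 2.79 (2.62 to 2.98). EGR1 did not pass over the months (log2 fold change 0.51 ± 0.25 SE, adjusted p = 0.235). EGR2 (gene25250), which is also the regulator of myelination in Schwann cells and is expressed in the hair follicle, was at 53.6, 76.9, 95.4 and 97.6 CPM in cashmere goats and at 42.5, 62.5, 60.8 and 32.0 CPM in milk goats. It was higher in cashmere goats in each month, most so at month 12 with a ratio of 3.05 (2.69 to 3.47), where the milk library was the lowest of all 8. Its log2 fold change was 0.72 ± 0.23 SE (adjusted p = 0.105), and it passed with DESeq2 (0.70) and with limma on log2(FPKM + 1) (0.86). EGR3 (gene9169), an EGR1-induced relative with roles in muscle spindles and lymphocytes, had 97.2, 171, 173 and 209 CPM in cashmere goats and 83.6, 123, 178 and 97.6 CPM in milk goats. The libraries of month 9 were level, and month 12 again had the widest gap, with a ratio of 2.15 (1.99 to 2.32). EGR3 did not pass (log2 fold change 0.43 ± 0.20 SE, adjusted p = 0.211).

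For FOS, EGR1 and EGR3 the size of the breed effect rested largely on the libraries of month 12. For FOSB it rested on those of months 3 and 12, and for EGR2, JUNB and ZFP36 on those of month 12 in part. Without the cashmere or without the milk library of month 12, the log2 fold change was 0.17 or 0.14 for FOS, 0.20 or 0.17 for EGR1 and 0.21 or 0.19 for EGR3. For EGR2 it was 0.43 or 0.41, for JUNB 0.51 or 0.49, for ZFP36 0.61 or 0.58 and for FOSB 0.85 or 0.83. FOSB stood at 1.42 with months 6 and 9 alone and at 2.09 without the milk library of month 3. Collagen was low in both libraries of month 12, and its part in the breed ratios of that month was not tested. FOS reached 0.92 without the milk library of month 3, and JUN stood at -0.23 or -0.22 without the cashmere or the milk library of month 9 and at -0.17 with limma on log2(FPKM + 1).

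**Figure D2:**
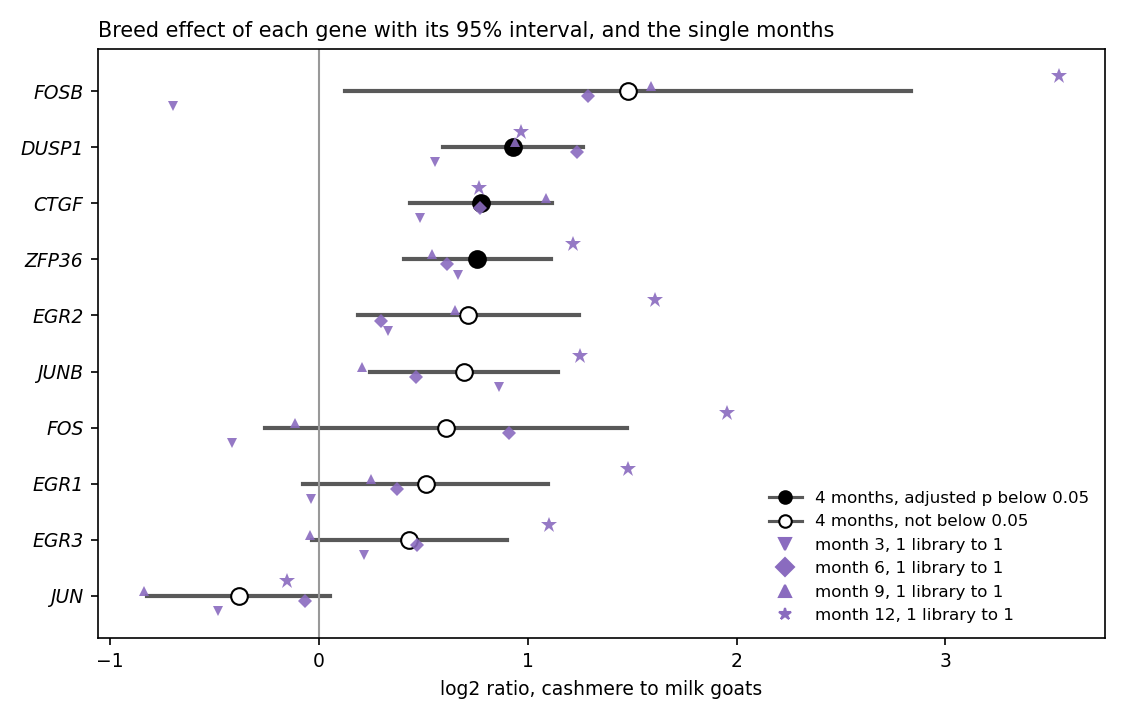
Log2 ratio of cashmere to milk goats for each gene: circles are the estimate over 4 months with its 95% interval (filled where the adjusted p is under 0.05), and small markers are single months, 1 library against 1. DUSP1, CTGF and ZFP36 have the narrowest intervals of the genes above 0, FOSB spans from -0.70 at month 3 to 3.54 at month 12, and the month 12 stars are the rightmost markers for 7 genes.

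Within a month there was 1 library of each breed, so the ratios of single months carry no test. At month 12, 7 of the 10 genes were over 2-fold higher in cashmere goats (FOS, FOSB, JUNB, EGR1, EGR2, EGR3 and ZFP36), against 9.68% of all genes, and the median log2 ratio of the 10 was 1.23. COL1A1 and COL1A2 had their lowest levels in both libraries of this month. At month 6 it was FOSB and DUSP1, 2 of the 10 against 2.32% of all genes. At month 9 it was FOSB and CTGF, 2 of the 10 against 5.29%. At month 3 it was 0 of the 10, against 3.88%, with a median of 0.27. Under library totals, 9 of the 10 were higher in cashmere goats at month 9, and 7 of the 10 with TMM factors, since the milk library of that month has the TMM factor farthest from 1 (0.783) and FOS and EGR3 change sign there.

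Across the libraries, the cashmere library of month 12 was the highest of all 8 for 7 of the 10 genes, against 9% of all genes. Within cashmere goats, month 3 was the lowest for 10 of 10, against 31.9% of all genes. In milk goats month 3 was the lowest of the breed for 7 of the 10, which was not counted over all genes. The milk library of month 3 was the lowest of all 8 for 4 of the 10, against 16% of all genes. The highest month in milk goats was month 6 for 4 genes (FOS, FOSB, EGR2 and DUSP1), month 9 for 5 (JUN, JUNB, EGR1, EGR3 and ZFP36) and month 12 for CTGF. These highest months were likewise not counted over all genes. Relative to each gene's own mean, the average of the 10 in log2 CPM was -0.55, 0.62, 0.31 and 0.90 in cashmere goats at months 3, 6, 9 and 12 and -0.70, -0.01, -0.11 and -0.46 in milk goats. The breeds were thus closest at month 3 and farthest apart at month 12, where cashmere goats had their highest average and milk goats their second lowest.

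**Figure D3:**
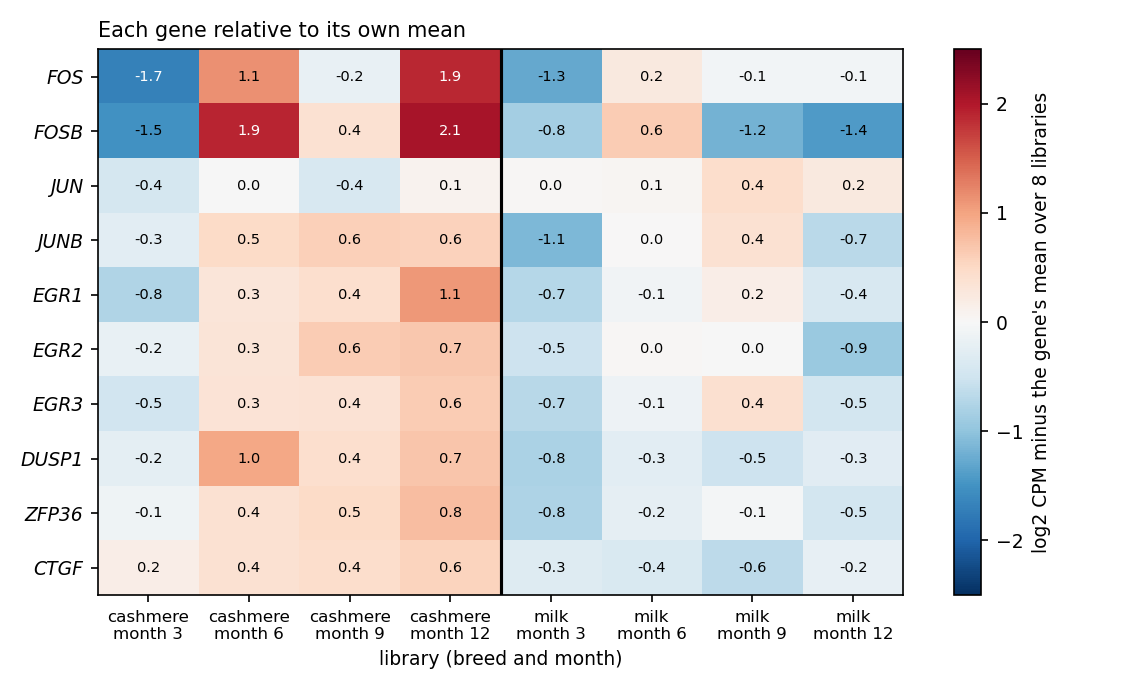
Log2 CPM of each gene minus its mean over the 8 libraries; red is above and blue below the gene's own mean, and each column is 1 library. All 10 genes are above their mean in the cashmere library of month 12, and 9 of 10 are below it in the milk library of month 3, while JUN has its higher values in milk goats.

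Differences between months over both breeds did not pass for any of the 10 genes, nor for any gene (0 of 10, and 0% of all genes, at an adjusted p under 0.05 with edgeR). At an unadjusted p under 0.05 there were 3 of the 10 (FOS, JUNB and DUSP1), against 13.4% of all genes. With DESeq2 FOS (adjusted p = 0.00429) and JUNB (adjusted p = 0.0345) passed, 2 of the 10, against 3.81% of all genes. The month test changed when libraries of month 12 were left out. Without both libraries of that month, a run chosen after seeing the data, FOS, JUNB and EGR1 passed (3 of the 10, against 4.25% of all genes). Without its cashmere library alone FOS, JUNB, EGR1, EGR2 and EGR3 passed (5 of the 10, against 8.22%), and without its milk library alone FOS passed (1 of the 10, against 0.774%).

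Month 9 against month 3 gave 0 of the 10 genes at an adjusted p under 0.05 (0% of all genes), and 5 of the 10 at an unadjusted p under 0.05, against 23.6% of all genes. FOS had a log2 difference of 1.32 ± 0.52 SE, JUNB of 1.19 ± 0.27, EGR1 of 1.01 ± 0.35, EGR3 of 0.97 ± 0.28 and ZFP36 of 0.66 ± 0.21, with adjusted p of 0.117 to 0.183. CTGF did not move in this contrast beyond its error (-0.03 ± 0.20). Month 12 against month 6 gave 0 of the 10 (0% of all genes) and also 0 of the 10 at an unadjusted p under 0.05, against 7.6% of all genes. A dependence of the breed difference on season, tested as the interaction of breed with a 12-month cosine and sine, was called for 0 of the 10 (0% of all genes) and reached an unadjusted p under 0.05 for 1 of the 10, EGR2 (adjusted p = 0.715), against 6.42% of all genes. With 2 residual degrees of freedom this test has little power, so the opposite turns of the breeds at month 12 are values and not a tested difference.

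Levels can be compared between genes per length, in FPKM. Over the 8 libraries JUN had the highest mean, at 95.2 ± 10.9 FPKM (SD, n = 8), followed by JUNB at 48.3 ± 19.3, EGR1 at 34.2 ± 16.7, CTGF at 32.4 ± 11.8 and ZFP36 at 24.4 ± 9.77. EGR3 (18.5 ± 6.29), FOS (14.5 ± 12.8), EGR2 (13.4 ± 5.41) and DUSP1 (12.1 ± 6.10) came next, and FOSB was lowest at 3.01 ± 3.08. JUN stood above the range of every other gene, from 76.3 to 104.58 FPKM. The neighbours from JUNB down to DUSP1 differed by less than their SD over libraries. On this scale DUSP1, ZFP36 and CTGF had all cashmere libraries above all milk libraries, 3 of the 10, against 17.1% of all genes.

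A wider list of 42 other immediate early genes had 41 members in the table, all tested. Of these 1 was called higher in cashmere goats, against 1.47% of all genes, and 0 lower, against 3.32%. SGK1, a serum- and glucocorticoid-induced kinase, was 2.01-fold higher at 72.0 ± 22.2 against 35.4 ± 11.02 CPM (adjusted p = 0.0390). The log2 fold change was above 0 for 27 of 41, with a median of 0.20, and at an unadjusted p under 0.05 there were 12 of 41 higher, against 12.9% of all genes, and 1 lower. In 5 of the 41 all cashmere libraries lay above all milk libraries, against 6.46% of all genes: the nuclear receptors NR4A2 and NR4A3, the AP-1 member FOSL2, the pseudokinase TRIB1 and the survival factor MCL1. NR4A2 stood at 7.44, 13.5, 7.22 and 20.3 CPM in cashmere goats at months 3, 6, 9 and 12, against 3.77 to 6.68 CPM in milk goats. Like FOS and FOSB, it was highest in the cashmere libraries of months 12 and 6. FOSL2, in contrast, was even over the months in cashmere goats, at 443 ± 13.8 CPM against 302 ± 42.3 (log2 fold change 0.56, adjusted p = 0.0839). The 4 most abundant members of the list did not pass: IER3 (0.13, adjusted p = 0.644), ZFP36L1 (-0.14, adjusted p = 0.616), MCL1 (0.28, adjusted p = 0.273) and FOSL2.

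**Figure D4:**
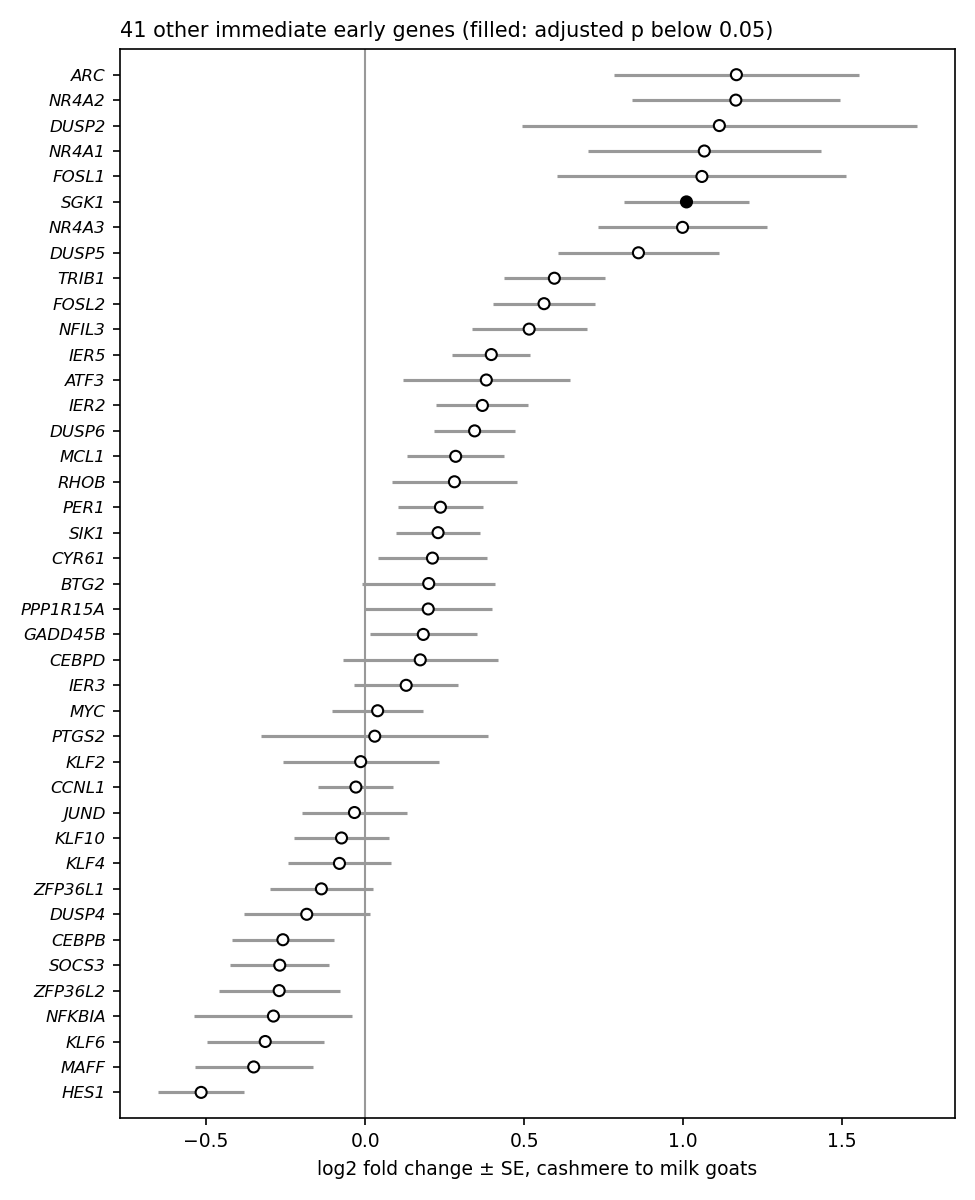
Log2 fold change of cashmere to milk goats, with SE, for 41 other immediate early genes; the filled point is SGK1, the gene with an adjusted p under 0.05. ARC and NR4A2 lie at the upper end at 1.17 and HES1 at the lower end at -0.52, and 27 of the 41 lie above 0.

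Upstream of these genes, the 20 genes of the EGF receptor, RAS and MAP kinase cascade were all tested. Of these 1 was called higher, against 1.47% of all genes, and 0 lower, against 3.32%. RPS6KA1, the kinase RSK1 that ERK activates, was 1.90-fold higher in cashmere goats (30.5 ± 4.84 against 16.6 ± 5.74 CPM, adjusted p = 0.0414). MAPK3, which encodes ERK1, stood at 0.63 ± 0.15 SE (adjusted p = 0.0560). Above 0 were 16 of the 20, against 52.8% of all genes, with a median of 0.18. At an unadjusted p under 0.05, 5 were higher, against 12.9% of all genes, and 0 lower. All cashmere libraries lay above all milk libraries for 5 of the 20, against 6.46% of all genes. EGF receptor ligands gave 0 of 6 called, all 6 above 0 with a median of 0.37 and 1 at an unadjusted p under 0.05. HBEGF stood at 0.49 ± 0.15 SE (adjusted p = 0.103) and TGFA at 0.39 ± 0.19 (adjusted p = 0.229). Of 9 tested transcription factors that act on immediate early promoters, 0 were called (unadjusted 2 higher and 2 lower) and 4 were above 0, SRF standing at 0.09 (adjusted p = 0.674) and CREB1 at -0.29 (adjusted p = 0.169). The EGR corepressors NAB1 and NAB2 stood at 0.16 (adjusted p = 0.444) and -0.12 (adjusted p = 0.581). Further feedback genes, dual specificity phosphatases and the Sprouty and SPRED inhibitors, gave 0 of 11 called (unadjusted 4 higher) with 8 above 0, DUSP10 standing at 0.98 ± 0.23 SE (adjusted p = 0.0563).

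Among 7 tested AP-1 partners outside the FOS and JUN families, 0 were called higher, against 1.47% of all genes, and 2 lower, against 3.32%. JDP2, a repressor that dimerizes with JUN, was at 22.9, 23.8, 13.3 and 14.7 CPM in cashmere goats and at 41.7, 36.9, 48.7 and 45.0 CPM in milk goats at months 3, 6, 9 and 12. MAF, a large basic leucine zipper factor, was at 36.5 ± 6.22 against 70.4 ± 24.2 CPM. JDP2 fell by 1.23 and MAF by 0.90 on the log2 scale in cashmere goats (adjusted p = 0.0363 and 0.0371), and neither had overlapping breeds, as in 8.02% of all genes. Beside CTGF, 0 of 11 YAP and TEAD genes and targets were called (unadjusted 1 higher), with 9 above 0 and a median of 0.19; YAP1 stood at 0.19 (adjusted p = 0.458) and the fellow target CYR61 at 0.21 (adjusted p = 0.458). The 4 CCN relatives NOV, WISP1, WISP2 and WISP3 gave 0 called (also 0 unadjusted), with log2 fold changes of 0.05 to 0.68. Of 3 tested mRNAs known to be bound by ZFP36, 0 were called (also 0 unadjusted), PTGS2 standing at 0.03 and TNF at 0.90 (adjusted p = 0.196).

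Heat shock and chaperone genes, which also respond to stress of tissue, had 11 of 14 members in the table. Of these 0 were called, against 1.47% of all genes called higher and 3.32% lower. Above 0 were 5 of the 11, against 52.8% of all genes, with a median of -0.03. Not found by symbol were HSPA1A, HSPA1B and HSPA1L, so the list says nothing on these heat shock genes. DNAJB1 stood at 0.69 ± 0.16 SE (adjusted p = 0.0574) and HSPA8 at 0.61 (adjusted p = 0.141), while HSP90AA1 stood at -0.93 (adjusted p = 0.105). HSP90AB1 stood at -0.92 (adjusted p = 0.0964). The summed level of the 11 was 6538 to 7358 CPM in cashmere goats and 8217 to 17438 CPM in milk goats, most of it from these 2 HSP90 genes. Without them the other 9 summed to 2603, 3024, 3198 and 2397 CPM in cashmere goats at months 3, 6, 9 and 12 and to 2234, 2512, 3632 and 2093 CPM in milk goats, so that the breeds overlapped and cashmere goats were higher in every month but month 9. At an unadjusted p under 0.05, 2 of the 11 were higher, against 12.9% of all genes, and 2 lower.

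Markers of cell types were summed in each library. None of them passed between months with edgeR, and between breeds the genes named here as called lower were the ones that passed. Of all genes, 3.32% were called lower and 1.47% higher. The 8 smooth muscle markers were all negative, with 3 called lower (DES, LMOD1 and SYNM), and their summed level was 1681 to 2816 CPM in cashmere goats and 2951 to 4476 CPM in milk goats. The 8 endothelial markers, with 1 called lower (ERG), summed to 267 to 651 CPM in cashmere goats and 269.8 to 832 CPM in milk goats. Hair shaft and matrix markers, with 6 of 11 in the table, summed to 652, 1371, 1614 and 1214 CPM in cashmere goats at months 3, 6, 9 and 12 and to 173, 754, 1478 and 78.2 CPM in milk goats. They were thus lowest in the libraries of month 3 and in the milk library of month 12, where most of the 10 immediate early genes were low as well. Inner root sheath markers (5 of 9 in the table) were summed at months 3, 6, 9 and 12. They stood at 21910, 53870, 58301 and 73928 CPM in cashmere goats and at 10038, 63368, 177411 and 2909 CPM in milk goats. At month 12 cashmere goats had their highest sum and milk goats their lowest. Macrophage and dendritic markers (6 of 7 in the table, AIF1 called lower) summed to 78.3 to 106 and 64.5 to 163 CPM, and T and NK cell markers (6 of 6) to 30.2 to 35.2 and 17.6 to 53.8 CPM, in cashmere and milk goats. Mast cell markers (3 of 4 in the table) summed to 19.99 to 26.5 and 8.09 to 32.8 CPM, melanocyte markers (5 of 5) to 5.66 to 13.0 and 1.87 to 2.82 CPM, and skeletal muscle markers (4 of 6) to 1.81 to 2.77 and 2.12 to 56.6 CPM, the last high value being the milk library of month 12. Of 4 blood markers 1 was in the table, ALAS2, at 0 in all milk libraries and at most 0.229 CPM in cashmere libraries. The part of these cells in the levels of the 10 genes was not tested.

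The genes most like the 10 in pattern were sought by Pearson correlation, over the 8 libraries, of log2 CPM with the average of the 10, among 10788 other genes with a mean of at least 5 CPM. TMEM181 (r = 0.98), DESI1, GBGT1 and IER5 (each r = 0.97 or 0.96) and FAM136A (r = 0.96) came first. IER5 is itself an immediate early gene, at 54.3, 82.5, 67.5 and 80.3 CPM in cashmere goats at months 3, 6, 9 and 12 and at 43.6, 59.7, 58.1 and 53.5 CPM in milk goats. The other 4 changed little in size, TMEM181 for example running from 57.0 to 77.9 CPM. For FOS alone the nearest were FAM136A (r = 0.93), DESI1 (r = 0.92) and the stress-induced factor ATF3 (r = 0.91), for DUSP1 they were PDLIM1, GBGT1 and VDAC1, and for CTGF they were MTMR10, SPSB1 and NPTN. These libraries share breed, month and depth, and no test was made.

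A second count table, made by the authors on another gene set, holds the same libraries and all 10 genes, JUN under the symbol C-JUN. It places FOS on chromosome 10, FOSB and ZFP36 on 18, JUN on 3, JUNB and EGR1 on 7, EGR2 on 28, EGR3 on 8, DUSP1 on 20 and CTGF on 9, in a genome build not given in the sources used here. Its models of JUN, JUNB and EGR3 are short, at 315, 378 and 357 bases. There, 5 of the 10 were called higher in cashmere goats, against 2.97% of all genes: DUSP1 (0.99, adjusted p = 0.0305), ZFP36 (0.94, adjusted p = 0.0298), CTGF (0.65, adjusted p = 0.0341), JUNB (0.85, adjusted p = 0.0337) and EGR1 (1.08, adjusted p = 0.0394). EGR1 thus stood at 1.08 there and at 0.51 in the first table, and DUSP1, unlike in the first table, had overlapping breeds. The other gene models gave the same shape for FOS, at 10.8, 81.5, 30.8 and 136 CPM in cashmere goats and 13.8, 47.3, 39.5 and 35.3 CPM in milk goats at months 3, 6, 9 and 12. Both tables come from the same libraries, so this repeats the counting and not the experiment.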

How the data were processed

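The authors deposited raw read counts per gene, without normalization, in 2 tables with different gene models, and FPKM for the genes of the first table. Per the labels' protocols, libraries were directional and paired-end, from polyadenylated RNA. Per the submitters' processing notes Bowtie2 was used. Its version, the genome build and strand use in counting: not given in the sources used here. Columns were matched to breed and month by name. In the first count table and the FPKM, 1 breed is headed by a name that the labels do not use, and it was taken as cashmere because the other is named milk. As a check, each of the 8 columns was most like its own counterpart in the second table, where cashmere is named, over 12931 shared symbols.

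Counts of the first table were filtered with filterByExpr, scaled by TMM and tested in edgeR 4.0.16 (R 4.3.3) with quasi-likelihood F tests in a model of month and breed with 3 residual degrees of freedom. P-values were Benjamini-Hochberg adjusted over 14085 genes, with a threshold of 0.05. Libraries of a month were paired by the label for month. An exact sign-flip permutation test over 4 months cannot go below p = 0.125 and was not used for calls. Log2 CPM used a prior count of 2. The floor of 3 reads stood for 0.231 to 0.395 CPM. The labels name no molecular identifiers, so duplicate reads may share a molecule, and the exact binomial intervals and this floor cover counting error only. The script was tested on simulated data. Alternatives used DESeq2 1.42.0 and limma 3.58.1.

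The 10 genes and the lists were chosen with earlier results of these data known. Each of the 10 was named. Of each list, the genes called and the 4 of highest mean CPM could be named. By correlation the 5 genes most like the average of the 10, and the 3 most like FOS, DUSP1 and CTGF, were named. NR4A2, NR4A3, TRIB1, ARC, HES1, MAPK3, HBEGF, DUSP10, DNAJB1, CYR61 and ALAS2 fall outside this rule and were chosen after their values were seen.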

Additional observations from a re-analysis of the deposited data

Results flagged for a closer look

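In milk goats FOSB stood at 18.9 CPM at month 6, with the other 3 months at 6.68 CPM or below, a gap of 0.844 of the breed's whole range. In cashmere goats JUNB stood at 119.5 CPM at month 3, with the other 3 months at 200.1 CPM or above, a gap of 0.846 of the range. These were 2 of 20 groups of 4 libraries examined, and chance flags about 1 in 20. Each library of a group is from another month, so a library that stands apart and a month that stands apart cannot be told apart.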

How the results depend on the processing

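The sign of the breed effect of each of the 10 genes was the same under all 21 alternatives, of which 3 were chosen after seeing the data. For the breed effect, leaving out either library of a month is nearly the same check as leaving out both, so the alternatives are not all separate. The number of the 10 called higher in cashmere goats (3), of all genes called (675) and of other immediate early genes called (1) became 5, 1712 and 7 with DESeq2, 5, 1374 and 9 with limma on log2(FPKM + 1), 5, 1161 and 9 with limma on log2(FPKM + 0.1), and 5, 1117 and 3 in the second count table. Without the replicate block (month not in the model) they were 1, 346 and 0, CTGF remaining called while DUSP1 (adjusted p = 0.0679) and ZFP36 (adjusted p = 0.0855) were not. Without month 3 in both breeds they were 0, 2 and 0, and with months 6 and 9 alone 3, 1333 and 6, where FOSB was called and ZFP36 was not (adjusted p = 0.0588). Leaving out 1 library gave 0 to 3 of the 10, 0 to 869 of all genes (2543 to 3936 at an unadjusted p under 0.05) and 0 to 1 of the others. Library totals turned the split of all called genes from 207 higher and 468 lower to 302 and 317, and FPKM to 1027 and 347. Between months, the 0 of the 10 and 0 of all genes became 2 and 536 with DESeq2, 3 and 600 without month 12, and 0 to 5 and 0 to 1180 when 1 library was left out. The causes were not tested. FOSB, with 36 to 390 reads a library, was the gene whose level depth limited most.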
